A study of Arabidopsis thaliana with 12 samples.

Results

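The data described here are the ribosome footprints and the mRNA of each nuclear gene in shoots of *Arabidopsis thaliana* grown at the control boric acid supply of 30 µM. The plants were wild type, ecotype Col-0, and 14 days old, and each replicate was a pool of whole shoots from about 300 seedlings raised on MGRL medium with sucrose. The study also held shoots at a low (0.3 µM) and a high (500 µM) supply, of the same ecotype and age, with 2 footprint and 2 RNA libraries at each supply and 12 libraries in all. The 4 control libraries carry the numbers 2 and 3 in the deposited tables and are called by those numbers. Of 27445 nuclear genes among the 27655 listed, 20089 had at least 1 count in both assays at the control supply, and these are the genes described. After the filter on low counts 18691 nuclear genes were tested, of which 18447 were among those 20089; the other 244 had no count in 1 of the assays, and 1642 of the 20089 were too low to test.

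A ribosome shields the stretch of mRNA it sits on from a nuclease, and sequencing these shielded pieces counts ribosomes on each coding sequence. Set against the mRNA of the same gene, footprints measure how densely an mRNA is occupied, a quantity usually called translation efficiency. An upstream open reading frame (uORF) is a short reading frame in the 5′ leader; ribosomes that translate or stall on it often do not go on to the main reading frame. In plants, several uORFs encode peptides that stall ribosomes when a metabolite such as sucrose, polyamine, ascorbate or phosphocholine is abundant, and a short AUG-stop uORF does so for boric acid.

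The control footprint libraries held 12274466 and 6903881 counts and the RNA libraries 9091475 and 8781846. Chloroplast genes took 4.91% and 4.04% of footprint counts but 0.0208% and 0.0157% of RNA counts, and organelle genes were left out of everything below. Leaf markers (RBCS1A, RCA, CAB1, LHCB4.1, PSBP-1) had between 17313 and 131472 counts in every control library, root markers (EXPA7, SHV2, CASP1) between 0 and 8, and flower markers (AG, AP3) between 1 and 12. The log2 ratio given for a gene is log2 footprints minus log2 mRNA, both in CPM, a count taken relative to the nuclear total of its library, after trimmed-mean (TMM) scaling over all libraries. Both assays were counted over the same coding sequence, footprints at the P-site and RNA as reads, and the ratio was not divided by length. Effects of length on the ratio were not removed, and how it varied with the length of the gene is given below. The ratio of 0 is the centre that the scaling sets, not an absolute number of ribosomes per mRNA, and the contrast also holds every difference between the assays in library making, read length and mapping, which cannot be told apart from translation. Errors of log2 ratios are standard errors (SE) from the fit, with 2 libraries per assay.

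Footprint levels followed mRNA levels across genes, but spread more widely. Over the 14177 genes with a mean of at least 50 counts, Spearman's correlation of mean mRNA with mean footprint log2 CPM was 0.806, against 0.985 between the RNA libraries and 0.977 between the footprint libraries; these are correlations across genes, which are not independent replicates. The SD across genes was 1.49 log2 units for mRNA and 1.84 for footprints. The median gene had an absolute log2 ratio of 0.66, compared with an absolute difference of 0.13 between the RNA libraries and 0.23 between the footprint libraries. The log2 ratios themselves repeated, with a Pearson correlation of 0.920 between the ratio of libraries 2 and the ratio of libraries 3. In 69.4% of these genes the assays lay within 2-fold of each other, and the 5th and 95th percentiles of the ratio were 10.7-fold apart.

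Of the 18691 genes tested, 11555 (61.8%) differed between footprints and mRNA at an edgeR adjusted p below 0.05. Of all tested genes, 5953 (31.8%) were called higher in footprints and 5602 (30%) lower, and with a difference of at least 2-fold these were 2707 (14.5%) and 3445 (18.4%). The CPM of the assays did not overlap in 14830 (79.3%). The balance of directions rests on the zero point: when libraries were scaled within each assay, the median log2 ratio of all genes moved from 0.04 to -0.39, and the share called higher among called genes fell from 51.5% to 28.8%. Because so many genes were called, the counts of a gene group below are to be read against these shares, and its median against 0.04. With scaling within each assay they are to be read against 3377 higher and 8362 lower of 18691, and against -0.39. The 19 lists kept nearly the same distance from the median of all genes under both scalings. That distance was 0.36 for cytosolic ribosomal proteins, 0.30 for Calvin cycle and photorespiration enzymes and 0.44 for receptor-like kinases. No group was matched to other genes for mRNA level or gene length, with which the ratio also varied. As given below, the median ratio was 0.38 and 0.40 in the top decile of mRNA level. It was 0.52 in the shortest quintile of genomic gene span.

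**Figure D1:**
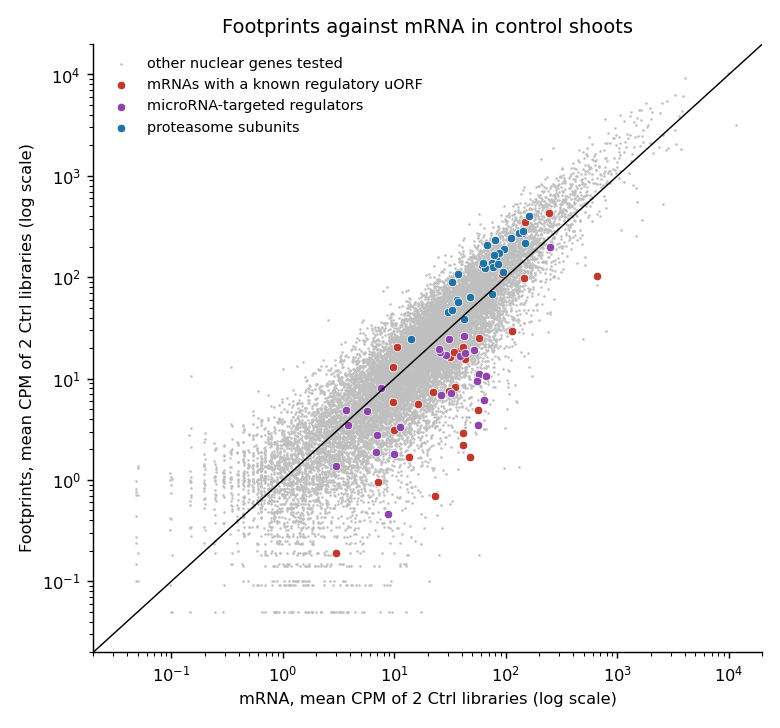
Mean footprint CPM against mean mRNA CPM of the 2 control libraries per assay for 18447 tested nuclear genes, both axes on log scales, with the line of equal CPM; coloured points mark 3 gene lists. Most uORF genes and microRNA-targeted regulators lie below the line and most proteasome genes above it.

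The mRNAs with a known regulatory uORF were mostly poor in footprints on their main coding sequence. All 28 on the list were tested: 23 were called lower in footprints, 19 of them by at least 2-fold, 3 were called higher and 2 were not called. Their median log2 ratio was -1.56, and the counts of 23 lower and 3 higher did not change when libraries were scaled within each assay or by nuclear totals alone. Of all 18691 tested genes, those called lower rose from 5602 to 8362 and 8336 with these scalings, so the unchanged counts stand against a higher share. The median of the list lay -1.59 from that of all genes under each of these scalings and the main one. mRNA and footprint CPM did not overlap in 27 of the 28. Together these genes held 0.23% of nuclear mRNA counts in each control RNA library and 0.11% of footprint counts in each footprint library. The list came from general knowledge of uORF genes, and no leader sequence was examined. It was set with earlier results of these data known, so its counts are a description and not an independent test.

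SAC51, a bHLH regulator through which thermospermine controls stem growth, had 41.9 and 40.5 CPM of mRNA in libraries 2 and 3 but 1.70 and 2.73 CPM of footprints. Its footprints were 19.6-fold below its mRNA (log2 ratio -4.30 ± 0.24, adjusted p = 1.29e-10). AT5G09460 had the lowest ratio of the list, with 48.6 and 45.9 CPM of mRNA against 1.40 and 2.01 CPM of footprints (log2 ratio -4.85 ± 0.21). AT1G29950 had 23.3 and 23.0 CPM of mRNA and only 12 and 1 footprint counts (-4.79 ± 0.31), and without footprint library 2 its ratio, then from 1 count, was -6.97, below that of AT5G09460. AT5G50010 had 2.79 and 3.22 CPM of mRNA and 2 and 1 footprint counts, too few to put a firm size on the ratio. In each of these genes both footprint libraries lay far below both RNA libraries.

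The polyamine gene SAMDC, S-adenosylmethionine decarboxylase, had the most mRNA of the list, 632 and 690 CPM. Its footprints were 85.1 and 120 CPM, 6.47-fold lower (log2 ratio -2.69 ± 0.17, adjusted p = 7.48e-10). Of the other genes listed with it, AT3G25570 had 12.9 and 14.0 CPM of mRNA against 1.70 and 1.64 CPM of footprints (-2.99 ± 0.27), and AT5G15950 had 23.8 and 20.7 against 7.18 and 7.66 (-1.59 ± 0.18). All 3 were thus called lower, with no overlap between the assays.

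The ascorbate genes VTC2 and VTC5, which encode GDP-L-galactose phosphorylase, differed from each other in size. VTC2 had 116 and 110 CPM of mRNA and 27.9 and 30.6 CPM of footprints (-1.96 ± 0.13). VTC5 had 44.3 and 38.4 CPM of mRNA but 2.89 and 2.92 CPM of footprints, a gap of 14.2-fold (-3.83 ± 0.20, adjusted p = 5.22e-11). The difference between the 2 genes was not tested.

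The bZIP transcription factors that share a sucrose-responsive uORF were not all on the same side. bZIP44 had the lowest ratio, with 8.47 and 5.83 CPM of mRNA against 0.998 and 0.911 CPM of footprints (-2.87 ± 0.43, from 10 and 5 footprint counts). GBF6, better known as bZIP11, had 9.15 and 10.8 CPM of mRNA and 3.99 and 2.19 CPM of footprints (-1.60 ± 0.27). Its ratio was -2.26 without footprint library 2 and -1.37 without footprint library 3. The log2 ratio was -1.03 ± 0.16 for bZIP2 and -0.85 ± 0.21 for BZIP53, whose footprints differed between libraries at 23.7 and 13.1 CPM. The ratio of BZIP53 was -1.47 without footprint library 2 and -0.60 without footprint library 3. In bZIP1 the order was the other way round, with 8.66 and 12.3 CPM of mRNA and 18.8 and 22.4 CPM of footprints (0.96 ± 0.21, adjusted p = 0.000518). Of the 5 genes, 4 were therefore called lower and 1 higher.

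The methyltransferases of phosphocholine synthesis also ran in different directions. XPL1, a phosphoethanolamine N-methyltransferase whose uORF responds to phosphocholine, had 159 and 135 CPM of mRNA and 91.7 and 103 CPM of footprints, a log2 ratio of -0.60 ± 0.14 (adjusted p = 0.000959). PMEAMT had 95.6 and 88.6 CPM of mRNA against 95.2 and 121 CPM of footprints, was not called (0.22 ± 0.13, adjusted p = 0.153) and was the gene of the list whose assays overlapped. AT1G73600 had 142 and 153 CPM of mRNA and 375 and 334 CPM of footprints, 2.41-fold more, the highest ratio on the list (1.27 ± 0.13, adjusted p = 2.37e-07).

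The boron transport genes, whose uORFs respond to boric acid, were called lower at the control supply. BOR1, a borate exporter, had 39.8 and 45.9 CPM of mRNA and 14.9 and 16.2 CPM of footprints (-1.47 ± 0.15, adjusted p = 1.14e-07). NIP5;1, a boric acid channel, had 9.24 and 10.1 CPM of mRNA and 6.19 and 5.65 CPM of footprints (-0.69 ± 0.21, adjusted p = 0.00737). ABS2, a B3-domain factor on the list, was not called (0.42 ± 0.21, adjusted p = 0.0895), and SKU5, a GPI-anchored protein of directional growth, was called higher at 0.84 ± 0.12, with 243 CPM of mRNA in each library and 411 and 458 CPM of footprints.

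The remaining genes of the list were all called lower. NAC082, a NAC factor of the response to ribosomal stress, had 57.2 and 55.9 CPM of mRNA against 5.29 and 4.56 CPM of footprints, 11.3-fold less (-3.50 ± 0.17). MHX, a vacuolar metal and proton exchanger, stood at -2.16, PHO1, a phosphate exporter, at -2.00, HSF4, a heat shock type factor, at -1.52, and TPS1, trehalose-6-phosphate synthase, at -1.20. The auxin response factors ETT and MP stood at -1.02 and -0.94. Single libraries of these genes did not cross between the assays.

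**Figure D2:**
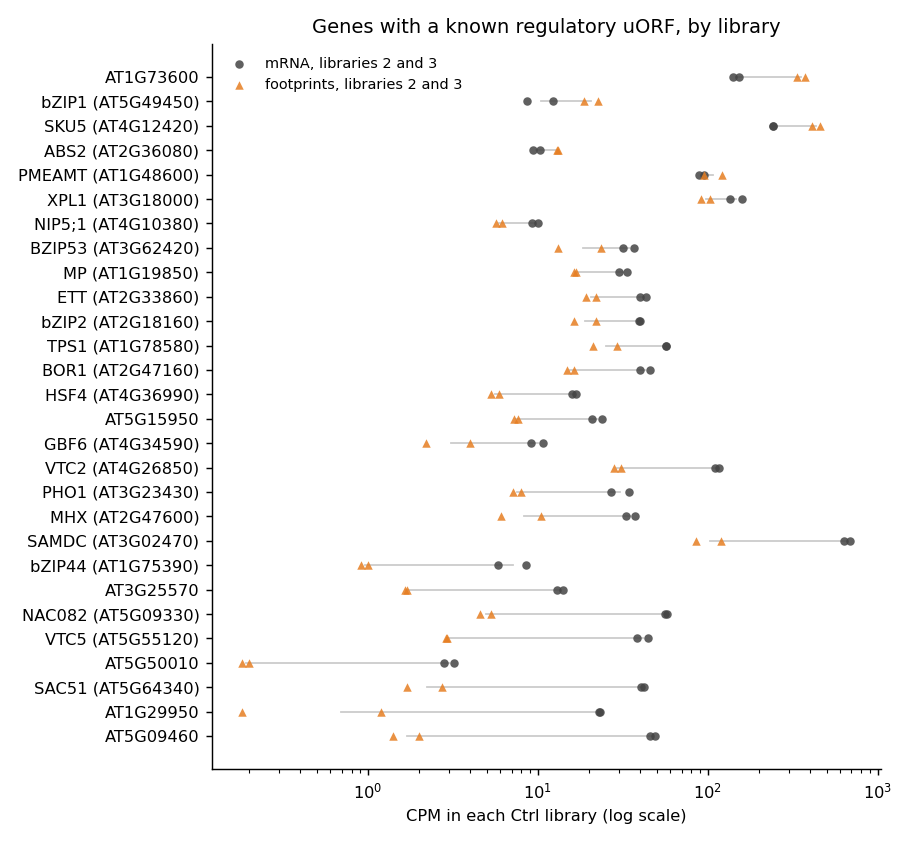
CPM on a log scale in each of the 2 control RNA libraries (circles) and 2 control footprint libraries (triangles) for the 28 genes with a known regulatory uORF, with a grey line between the means. Triangles lie left of circles except in AT1G73600, bZIP1, SKU5 and ABS2, and they overlap in PMEAMT.

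Regulators targeted by microRNAs were also poor in footprints. Of this list, transcription factors and AGO1, 19 of 26 tested (28 listed) were called lower, none was called higher, and the median log2 ratio was -1.27. TCP4, a factor of leaf growth, had 57.4 and 54.5 CPM of mRNA against 2.69 and 4.19 CPM of footprints, 17.1-fold less (-4.09 ± 0.22, adjusted p = 9.51e-11). TCP3 had 73.3 and 53.8 CPM of mRNA against 4.89 and 7.47 CPM of footprints (-3.42 ± 0.21). The leaf polarity factors ATHB-15, PHB and PHV stood at -2.63, -2.54 and -2.37. REV, of the same family, stood at -1.25, and HB-8 was not called (-0.35). AGO1, the slicer that the microRNAs guide and itself a microRNA target, differed little, with 236 and 257 CPM of mRNA and 205 and 195 CPM of footprints (-0.30 ± 0.12, adjusted p = 0.0462). The not-called members were all of the NF-YA, AP2-like or HD-ZIP kind and reached from -0.44 (NF-YA2) to 0.46 (SMZ).

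Auxin response factors lay on one side and the pooled list of Aux/IAA and JAZ repressors on the other. Of the 12 auxin response factors, the activators and repressors of auxin-regulated genes, 9 were called lower and none higher, with a median of -0.98; ETT and MP are members of the uORF list as well. ARF8 had 46.7 and 51.6 CPM of mRNA against 7.48 and 5.65 CPM of footprints (-2.86 ± 0.16), and ARF4 had 54.6 and 46.8 against 7.98 and 8.93 (-2.60 ± 0.17). Both are far below the range of their mRNA. Of the Aux/IAA and JAZ proteins, short-lived repressors that auxin and jasmonate cause to be degraded, 20 of 23 tested (24 listed) were called higher and none lower, with a median of 0.88. IAA16 had 82.9 and 88.6 CPM of mRNA and 295 and 237 CPM of footprints, 3.11-fold more (1.64 ± 0.14, adjusted p = 2.62e-08). JAZ10 had 2.41 and 2.71 CPM of mRNA and 9.48 and 5.83 CPM of footprints (1.64 ± 0.31). The members not called were IAA8 (-0.29), JAZ4 (0.32) and JAZ5 (1.09). With scaling within each assay, the calls of these repressors were 10 higher and 1 lower.

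The circadian clock genes were split. Of 10, 5 were called lower and 3 higher, and the median was -0.59. TOC1, an evening repressor, had 152 and 136 CPM of mRNA against 28.2 and 42.7 CPM of footprints (-2.05 ± 0.17), and PRR7, a daytime repressor, had 190 CPM of mRNA in both libraries against 50.4 and 43.9 CPM of footprints (-2.00 ± 0.13). The morning factors LHY and CCA1 stood at -3.15 and -1.15, with LHY at under 1 CPM of footprints. ELF4, of the evening complex, was at 1.15, PCL1 at 0.57 and PRR5 at 0.52. With scaling within each assay 6 were called lower and 1 higher. Of the SR splicing factors and GRP7 and GRP8, whose pre-mRNAs are widely alternatively spliced, 11 of 21 were called lower and 2 higher, with a median of -0.57 (16 lower and none higher with scaling within each assay). SR45a had 39.5 and 32.6 CPM of mRNA against 8.78 and 12.9 CPM of footprints (-1.77 ± 0.18), and RS2Z33 had 70.9 and 71.1 against 21.7 and 20.4 (-1.75 ± 0.17).

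Subunits of the proteasome, which degrades ubiquitin-tagged proteins, were the group with the highest median, 0.91. Of 30 subunits 27 were called higher and none lower, 10 of them by at least 2-fold. The catalytic ring subunit PBA1 had 68.3 and 66.4 CPM of mRNA and 208 and 207 CPM of footprints, 3.08-fold more (1.62 ± 0.13, adjusted p = 7.36e-09). PBG1 had 79.8 and 79.5 CPM of mRNA and 254 and 212 CPM of footprints (1.55 ± 0.13). The subunits not called were PAA2 (-0.16), PAD2 (-0.14) and PAA1 (0.28). With scaling within each assay, 19 were called higher and 2 lower, and the median was 0.49.

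The nuclear photosystem proteins were rich in footprints, but the light-harvesting proteins were not uniformly so. Of 45 genes of both kinds, 31 were called higher and 7 lower, with a median of 0.88 (25 higher, 10 lower and 0.45 with scaling within each assay). Of photosystem I subunits, PSAN stood at 2.23, PSAD-1 at 1.69, PSAK at 1.67 and PSAF at 0.99, and the chloroplast ATP synthase subunit ATPD at 2.12. All 7 genes called lower encode light-harvesting antenna proteins: CAB1, CAB2, CAB3, LHB1B1, LHB1B2, LHCA1 and LHCA4. CAB2 had 1307 and 1633 CPM of mRNA against 244 and 263 CPM of footprints (-2.54 ± 0.19), and CAB3 had 2297 and 2800 against 557 and 497 (-2.27 ± 0.22). These genes of the LHCB1 family are near-identical copies, and the sources used here do not say how shared reads were assigned, so the value of a single copy is uncertain. Summed over 5 LHCB1 genes, mRNA was 18116 and 24138 CPM and footprints 6205 and 6231 CPM, a log2 ratio of the means of -1.76, with no test of the sum. The sum of 3 LHCB2 genes was 1100 and 1201 CPM of mRNA and 1974 and 2146 CPM of footprints (0.84).

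Calvin cycle and photorespiration enzymes lay closer to the centre. Of 30 tested (31 listed), 14 were called higher and 3 lower, with a median of 0.34 that turned to -0.09 with scaling within each assay, where 9 were called higher and 10 lower. The list median stayed 0.30 above the median of all genes under both scalings. CAT2, the peroxisomal catalase of photorespiration, had 166 and 123 CPM of mRNA and 509 and 472 CPM of footprints (1.77 ± 0.18, adjusted p = 1.87e-07). RBCS2B, a Rubisco small subunit, had 1693 and 1306 CPM of mRNA against 586 and 512 CPM of footprints (-1.45 ± 0.17). The 4 small-subunit genes are close copies, and their sum was 16103 and 14325 CPM of mRNA against 13442 and 14819 CPM of footprints, a log2 ratio of -0.11.

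The translation machinery showed no single direction. Of the cytosolic ribosomal proteins, 20 of 35 tested (36 listed) were called higher and 4 lower, with a median of 0.40 that became -0.02, with 8 higher and 9 lower, under scaling within each assay. The median of all genes moved likewise, so that of the list stayed 0.36 above it under both scalings. AT3G23390, which carries a ribosomal protein name in the RefSeq table, had 105 and 111 CPM of mRNA and 381 and 250 CPM of footprints (1.55 ± 0.17), and RPS15A had 219 and 240 CPM of mRNA against 104 and 85.9 CPM of footprints (-1.27 ± 0.14). Of 28 translation factors, 12 were called higher and 3 lower, with a median of 0.28 (7 higher, 9 lower and -0.14 under scaling within each assay). The 3 lower ones were the poly(A)-binding proteins PAB2 and PAB4 and the growth regulator TCTP. PAB2 had 508 and 519 CPM of mRNA and 141 and 124 CPM of footprints (-1.95 ± 0.14), and TCTP had 1122 and 1043 against 331 and 253 (-1.89 ± 0.17). By contrast the helicase EIF4A-2 stood at 1.83, the cap-binding protein EIF4E at 1.22 and the elongation factor LOS1 at 0.95. Of 18 nuclear-encoded plastid ribosomal proteins, 7 were called higher and 1 lower, with a median of 0.22 (3 higher, 6 lower and -0.20 under scaling within each assay); RPS1 stood at 1.02 ± 0.13 and RPL12-C, one of several close copies, at -1.09 ± 0.16.

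Channels and the proton pump of the vacuole were called higher more often than lower. Aquaporins, the water and solute channels, had 15 called higher and 1 lower of 26 tested (34 listed), with a median of 0.61 (8 and 2 with scaling within each assay), and the lower one was NIP5;1. The tonoplast channel TIP2 had 662 and 876 CPM of mRNA and 1881 and 2316 CPM of footprints (1.45 ± 0.17). SIP1;2, a channel of the endomembranes, had 3.27 and 2.31 CPM of mRNA and 8.08 and 7.29 CPM of footprints (1.46 ± 0.32). The vacuolar proton pump had 10 higher and 1 lower of 13 tested (15 listed), with a median of 0.57 (5 and 2 with scaling within each assay). Its catalytic subunit VHA-A had 436 and 451 CPM of mRNA and 1063 and 1144 CPM of footprints (1.31 ± 0.13), and VMA10 had 80.4 and 85.1 against 218 and 207 (1.36 ± 0.13). Lipid-transfer proteins, which carry lipids to the cuticle, had 2 higher and 1 lower of 7 tested (8 listed), and 1 higher and 2 lower with scaling within each assay. LTP5 had 336 CPM of mRNA in each library and 796 and 898 CPM of footprints (1.33 ± 0.17), whereas the call of LP1 (0.77 ± 0.20) was lost with scaling within each assay (0.34, adjusted p = 0.134).

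Histones and tubulins completed the structural lists. Of 18 histone genes tested (20 listed), 12 were called higher and 1 lower, with a median of 0.66, but the calls were 3 and 3 with scaling within each assay. HTB2 had 93.1 and 99.6 CPM of mRNA and 208 and 148 CPM of footprints (0.89 ± 0.16). HTA12 stood at 0.89 ± 0.24, and its call was lost with scaling within each assay (0.47, adjusted p = 0.106) and without footprint library 2 (0.69, adjusted p = 0.0750). Of 14 tubulins, 5 were called higher and 4 lower, with a median of 0.24 (3 higher, 5 lower and -0.18 with scaling within each assay). TUA2 had 467 and 562 CPM of mRNA against 137 and 178 CPM of footprints (-1.71 ± 0.15), and TUB1 had 15.3 and 20.0 against 40.1 and 35.9 (1.11 ± 0.19). Copies within both families are close in sequence, so reads may have been shared between them.

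Receptor-like kinases and WRKY factors, both large families of defence and signalling, held members far from 0 on both sides. Of 115 kinases tested (141 listed), 58 were called higher and 27 lower, with a median of 0.48 (39 and 41 with scaling within each assay). PERK10, a proline-rich kinase, had 175 and 169 CPM of mRNA against 10.1 and 10.9 CPM of footprints, 16.5-fold less (-4.04 ± 0.16, adjusted p = 2.49e-12). SERK2, a co-receptor of brassinosteroid signalling and anther development, had 35.4 and 36.0 against 3.69 and 4.92 (-3.09 ± 0.23). On the other side, AT2G37710 had 91.8 and 90.0 CPM of mRNA and 366 and 453 CPM of footprints (2.17 ± 0.15). AT3G08870 stood at 2.31 ± 0.20. Of 61 WRKY factors tested (72 listed), 27 were called higher and 8 lower, with a median of 0.55 (16 and 19 with scaling within each assay). WRKY53, a senescence regulator, had 19.1 and 25.8 CPM of mRNA and 66.0 and 110 CPM of footprints (1.95 ± 0.21), and WRKY19 had 33.7 and 30.5 against 5.39 and 7.11 (-2.40 ± 0.18).

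**Figure D3:**
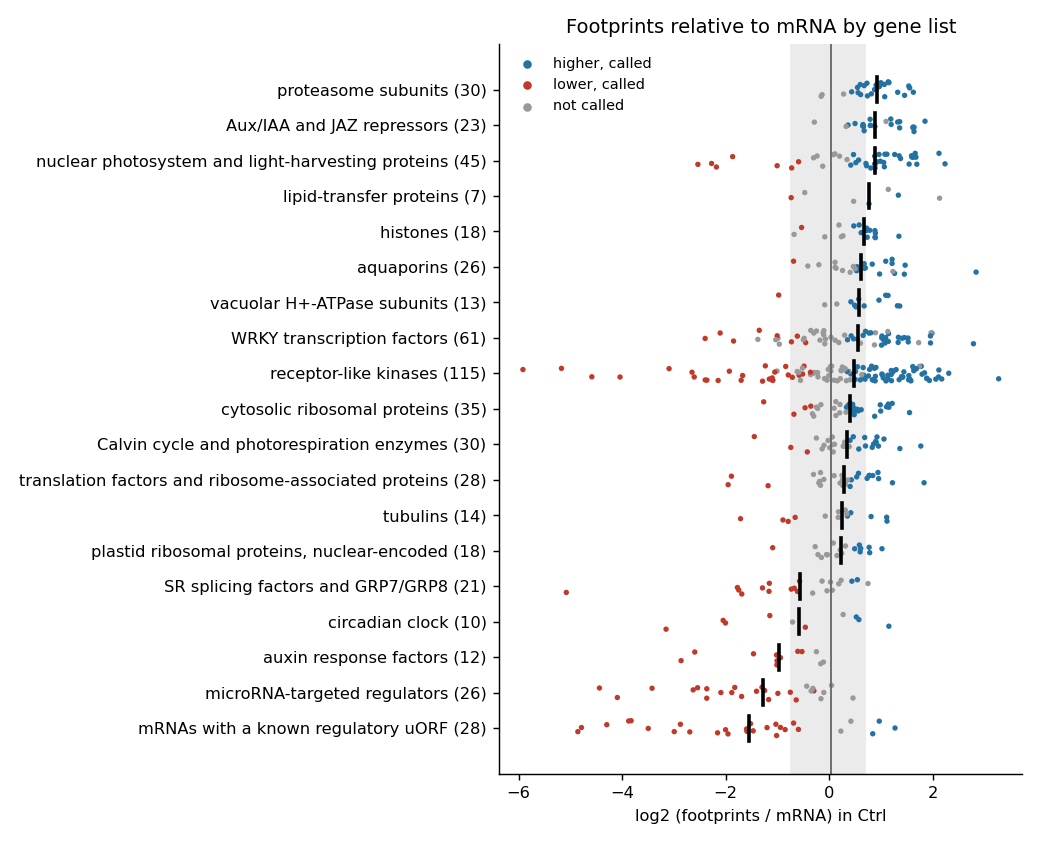
Log2 ratio of footprints to mRNA at the control supply for each tested member of 19 gene lists, ordered by median, with the number tested in parentheses; blue and red points were called higher and lower, grey ones were not called, black bars are medians, and the grey line and band are the median and quartiles of all tested genes. The uORF list has the lowest median (-1.56) and the proteasome list the highest (0.91).

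Among called genes with a mean of at least 20 counts in each assay and no overlap between the assays, the lowest ratio was that of TLP2, a Tubby-like protein, with 95.9 and 102 CPM of mRNA against 3.39 and 3.10 CPM of footprints (-4.91 ± 0.22). CP5 followed with 732 and 857 CPM of mRNA against 21.5 and 37.0 CPM of footprints, 27.8-fold less (-4.80 ± 0.24), and LARP6b, a La-related RNA-binding protein, had 492 and 485 against 24.9 and 24.6 (-4.30 ± 0.15). AT1G26580, AT3G60300 and AT4G03260 lay between them, at -4.34, -4.32 and -4.32. In all 6 genes both footprint libraries lay many times below both RNA libraries.

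At the other end, AT3G19030 had 1.73 and 3.32 CPM of mRNA and 38.5 and 36.6 CPM of footprints, 14.9-fold more (3.90 ± 0.24, adjusted p = 5.89e-10). RLP21, a receptor-like protein, had 9.05 and 8.24 CPM of mRNA and 71.3 and 87.7 CPM of footprints (3.19 ± 0.17). IOS1, a receptor-like kinase of defence, had 52.8 and 61.6 CPM of mRNA and 383 and 462 CPM of footprints (2.88 ± 0.16), and XTH24, a wall-loosening enzyme, had 243 and 283 against 1859 and 1875 (2.83 ± 0.14). AT5G39580 had footprint libraries that differed from each other, 44.1 and 102 CPM, over 6.45 and 9.35 CPM of mRNA (3.19 ± 0.31; 2.42 without footprint library 3). AT4G10270 had RNA libraries that differed, 2.02 and 8.54 CPM, under 34.0 and 42.3 CPM of footprints (2.85 ± 0.34). Without RNA library 2 the ratio of AT4G10270 was 2.15, and without RNA library 3 it was 4.22. Absence of overlap between the assays was a condition for naming these 6 genes and is not a result.

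The genes with the most footprint counts, which are not corrected for length, were those of leaf metabolism. RBCS1A had 9190 and 11304 CPM of footprints over 10184 and 9389 CPM of mRNA and was not called (0.07 ± 0.18, adjusted p = 0.765), although scaling by nuclear totals alone called it lower (-0.37, adjusted p = 0.0299). THI1, the enzyme that makes the thiazole of thiamine, had 8120 and 10507 CPM of footprints over 4006 and 4092 CPM of mRNA (1.20 ± 0.17). RCA, Rubisco activase, had 5718 and 6823 over 3456 and 3171 (0.92 ± 0.16), and PSAF had 5733 and 5211 over 2751 and 2774 (0.99 ± 0.15). CAT3, a catalase, had 6241 and 5985 over 3728 and 3977 (0.67 ± 0.14), a call that was lost with scaling within each assay (0.24, adjusted p = 0.151).

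A few well-expressed mRNAs carried almost no footprints. Of 8616 nuclear genes with a mean of at least 200 RNA counts, 15 had 3 or fewer footprint counts over both control libraries, 12 had 0, and 3 had 0 in all 6 footprint libraries of the study; those with 0 fall outside the 20089 genes. AT2G15880 had 1455 and 1491 RNA counts and no footprint, which puts its mRNA at least 749-fold above its footprints when 3 counts over the group are taken as the limit that a count of 0 allows. AT1G53780 had 964 and 845 RNA counts (at least 459-fold higher), PLDGAMMA2, a phospholipase D, 715 and 686 (at least 356-fold higher) and AT2G11225 381 and 315 (at least 177-fold higher), all with 0 footprints. AT5G49440 had 582 and 577 RNA counts and 0 and 2 footprint counts. These limits cover counting error only.

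The ratio rose with the mRNA level. To keep the noise of a library out of both axes, genes were ranked by one RNA library and the ratio was taken from the libraries of the other number. Ranked by RNA library 3, the median log2 ratio was -0.08 in the lowest decile of 14550 genes and 0.38 in the highest, where the median mRNA was 185 CPM. Ranked by RNA library 2, the medians were -0.15 and 0.40 over 14683 genes. Spearman's correlation was weak at 0.137 and 0.151, and the quartiles of every decile overlapped those of the others. The ratio fell with the length of the gene. Over 14177 genes sorted by genomic span, introns included, the median was 0.52 in the shortest quintile (median span 1421.5 bp, assembly TAIR10.1) and then 0.30, 0.11, -0.03 and -0.34 in the longest (4980 bp), with a Spearman correlation of -0.313 across genes. Coding length was not available for this comparison, and CPM is not corrected for length in either assay.

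**Figure D4:**
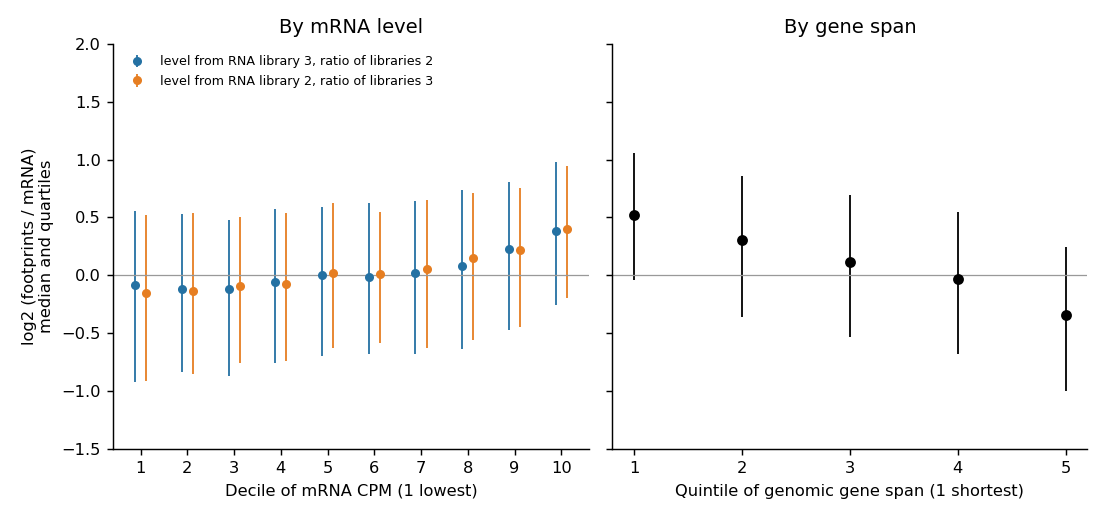
Median (points) and quartiles (bars) of the log2 ratio of footprints to mRNA by decile of mRNA CPM, with the level and the ratio taken from different libraries (left), and by quintile of genomic gene span (right). The medians rise from about -0.1 to about 0.4 with mRNA level and fall from 0.52 to -0.34 with span.

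The footprint to mRNA differences of control shoots were largely kept at the other boric acid supplies, which used other libraries but entered the same fit. Of the 11555 genes called at the control supply, 11400 (98.7%) had the same direction at low boron and 11409 (98.7%) at high boron. Also called there in that direction were 9627 (83.3%) and 10037 (86.9%). Of all tested genes, 61.8% were called at the control supply in either direction. The shares of all tested genes called at low and at high boron are not given here. Across the 14177 genes, Spearman's correlation of the log2 ratio with that of control shoots was 0.953 at low and 0.950 at high boron, as a description over genes that share their sequence and assay. A test of the change itself called 4 genes (0.0214%) between control and low boron and 136 (0.728%) between control and high boron. These counts leaned on single libraries: with each library left out in turn, they ranged from 0 to 13 for low boron and from 48 to 201 for high boron. The lowest counts came without low-boron RNA library 2 and without control RNA library 3, respectively, and both highest counts without control footprint library 3. Among the uORF genes, 2 were called between control and high boron. The log2 ratio of BOR1 was -1.47 ± 0.15 at the control supply, -1.12 at low boron and -3.35 at high boron; control exceeded high boron by 1.88 ± 0.24 (adjusted p = 0.000466), and the call held with each of the 8 control and high-boron libraries left out. That of BZIP53 was -0.85 at control, -0.93 at low and -2.42 at high boron, a difference of 1.56 ± 0.32 (adjusted p = 0.0255). That call was lost when any of 5 of the 8 libraries was left out: control footprint library 2 (difference 1.00, adjusted p = 0.315), control RNA library 3 (1.46, adjusted p = 0.127), high-boron footprint library 3 (1.302, adjusted p = 0.116) or high-boron RNA library 2 (1.53, adjusted p = 0.115) or 3 (1.60, adjusted p = 0.0889). The difference of BZIP53 kept its sign in each case. In bZIP44 the log2 ratio was -2.87 at control, -3.16 at low and -4.58 at high boron. Its difference between control and high boron, 1.70 ± 0.79, was not called by the interaction test (adjusted p = 0.608). NIP5;1 stood at -0.69 at control, 0.64 at low and -1.30 at high boron, and its difference between control and low boron, -1.33 ± 0.25, did not pass the adjustment over all genes (adjusted p = 0.119), although it did without low-boron footprint library 2 (-1.53, adjusted p = 0.0340).

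**Figure D5:**
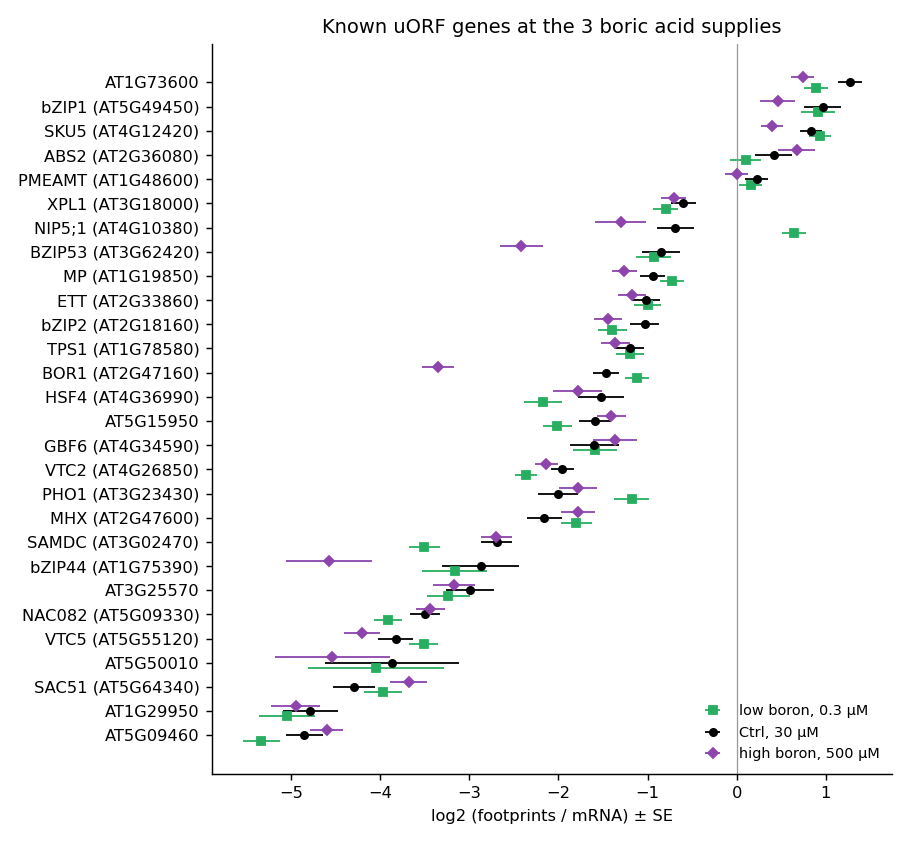
Log2 ratio of footprints to mRNA (± SE) of the 28 genes with a known regulatory uORF at 0.3, 30 and 500 µM boric acid, ordered by the control value. Points of most genes lie close together, while those of BOR1, BZIP53 and bZIP44 at 500 µM lie to the left of the other supplies. At 0.3 µM those of NIP5;1 and PHO1 lie to the right of the other supplies, and those of SAMDC and HSF4 to the left. Of the shifts named here, only those of BOR1 and BZIP53 between 30 and 500 µM were called.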

How the data were processed

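The deposited tables hold raw counts, 1 row per coding sequence: the authors deposited footprint counts at the ribosomal P-site and RNA read counts over coding sequences. Per the submitters' processing notes Bowtie2 and SAMtools were used; their versions, the genome build, read filters, the assignment of shared reads, the use of strand and the making of the RNA libraries are not given in the sources used here. Per the labels' protocols, extracts held cycloheximide and footprints were cut with RNase I. Columns name the group and carry the numbers 2 and 3, the labels 1 and 2, so columns were mapped to groups only. Replicates are pools of about 300 plants, and p-values measure the spread between these libraries.

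All 12 libraries were fitted in edgeR 4.0.16 (R 4.3.3): nuclear genes, filterByExpr, TMM, 1 coefficient per group, quasi-likelihood test of control footprints against control RNA, Benjamini-Hochberg adjustment, threshold 0.05. The SE is the log2 ratio divided by the square root of F. Changes with boron were tested as interactions. The 19 lists were set from general knowledge or RefSeq names and some were trimmed by name; members and lists were chosen with earlier results of these data known. Named in the text are the 6 highest and 6 lowest called genes with a mean of 20 counts in each assay and no overlap, all tested uORF genes, up to 2 called genes of each other list, the 5 genes with most footprints and 5 with almost none; further list members were chosen after their values were seen. Alternatives, with DESeq2 1.42.0 and limma 3.58.1 among them, are given in the closing section. A RefSeq table (assembly TAIR10.1) gave names for 27445 of the 27655 IDs. The pipeline was tested on simulated data. Coding or protein length, the residue after the start codon and leader sequences were not analysed here.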

Additional observations from a re-analysis of the deposited data

Results flagged for a closer look

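In 2 uORF genes the ratio of footprints to mRNA at the control supply differed from that at high boron by the interaction test. In BOR1 the log2 ratio was 1.88 higher at control (SE 0.24, edgeR adjusted p = 0.000466), and in BZIP53 it was 1.56 higher (SE 0.32, edgeR adjusted p = 0.0255), a call lost without any of 5 of the 8 libraries involved. These are 2 of the 136 genes called in that test, 0.728% of those tested. Groups of 2 libraries are too small for a check on single outlying libraries.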

How the results depend on the processing

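The zero point decided the balance of directions. With TMM within each assay 3377 genes were called higher, 1113 were higher and 5268 lower by at least 2-fold, and with nuclear totals alone these were 3309, 1090 and 5296. A strict filter (a mean of 50 counts per library in both assays), which leaves 12530 genes, gave 3699 lower, and 1429 higher and 1507 lower by at least 2-fold. The number called stayed between 9865 and 10941 when each control library was left out in turn, and was 10614 with DESeq2, 11493 with limma voom and 10504 with the 4 control libraries alone. Signs were followed across the alternatives only for the 86 genes set to be named by rule. Among these, 3 that were not called changed sign. The log2 ratio of PMEAMT was -0.20 within assay, -0.21 with totals alone and between -0.011 and 0.31 with a library left out. That of ABS2 was -0.00489 and -0.012 with the same scalings. That of RBCS1A was -0.36 and -0.37 with these scalings, -0.089 with the strict filter, -0.0037 with the control libraries only and between -0.15 and 0.13 with a library left out; -0.37 alone passed the threshold. The cause was not tested. Deviations of equal-numbered libraries correlated at 0.057 (control), 0.047 (low) and -0.020 (high boron), so the numbers were not treated as pairs; with the number as a replicate block 11601 genes were called. The interaction counts were added to the alternatives after the data were seen: 0 to 13 genes for low boron and 48 to 201 for high boron with a library left out. The edgeR count of 0, without low-boron RNA library 2, had 801 genes at an unadjusted p under 0.05. The planned split by protein length was not run. Depth limits genes with few footprints: the group floor was 0.193 CPM.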

Other observations

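Seed storage genes were the exception among the marker lists. CRA1 had 1 and 2 RNA counts in control libraries 2 and 3 but 66 and 79 footprint counts, CRU3 had 0 and 0 against 10 and 22, and SESA1 had 0 and 0 against 6 and 2. These markers were near 0 in RNA and above it in footprints in every control library, and their part in other results was not tested.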
